A study of Mus musculus with 6 samples.

Results

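Transcripts of S100 proteins and annexins, families of calcium-regulated proteins, were measured by RNA-seq in sorted cells of the mouse kidney medulla. The genes described are 10, listed by name with earlier results of these data known. They are S100a1, S100a6, S100a10 and S100a11 of the S100 family and Anxa1, Anxa2, Anxa3, Anxa4, Anxa5 and Anxa7 of the annexin family. The deposited table holds 37583 genes, among them 16 S100 and 12 annexin genes in all. The mice carried an EGFP transgene named for the proton pump (V-ATPase) subunit B1, which the design text says is expressed specifically in intercalated cells, the acid- and base-moving cells of the collecting duct. EGFP-positive, double-sorted cells were taken either after sham surgery (3 samples) or after renal ischemia-reperfusion injury (IRI, blood flow stopped and restored, 3 samples), and both groups were collected 2 h after the operation from mice aged 12 weeks. Each sample combined 4 kidneys of 2 mice, and the labels do not tie samples to separate experiments. The p-values thus cover the spread among these 6 pools, which may be technical. The labels name epididymis as the tissue and CX3CR1 as the gene controlling EGFP, which is at odds with the design text.

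S100 proteins form dimers of EF-hand calcium-binding units that change shape when calcium binds and then dock onto target proteins. Annexins bind acidic phospholipids of membranes when calcium rises, and take part in vesicle traffic, membrane organisation and the patching of torn plasma membranes. The families meet physically: S100A10, which does not bind calcium itself, forms a tetramer with annexin A2, and S100A11 binds annexin A1.

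Reads counted in genes ran from 17421669 to 23061108 per library in sham and from 22478011 to 24245330 in IRI. Transcripts of intercalated cells were abundant in both groups: a list of 10 markers, led by Car2 and Atp6v1g3, summed to 21220 to 27320 CPM (read counts scaled to a common library size) in sham and 22840 to 27680 in IRI. Of those 10 markers 2 were lower in IRI, Atp6v1b1 and Kit (named after their values were seen), and 8 had no call. Among all genes tested, 21.2% were lower. Principal cell markers, led by Aqp2 and Aqp3, summed to 12080 to 13470 CPM in sham and 5979 to 11630 in IRI, lowest in IRI replicate 2, and Aqp2 alone averaged 9355 CPM in sham and 6573 in IRI. Of 6 principal cell markers tested, 2 were lower, Aqp3 and Hsd11b2 (named after its values were seen). The other 4, Aqp2 among them, had no call, and DESeq2 called 4 lower. Thick ascending limb markers, led by Umod and Kcnj1, summed to 1156 to 1913 CPM in sham and 753 to 1329 in IRI, and proximal tubule markers, led by Lrp2 and Slc34a1, to at most 6.28 CPM. Of 5 thick ascending limb markers tested, 1 was lower, Kcnj1 (624 CPM in sham and 123 in IRI), and 4 had no call. Umod, among those 4, averaged 785 CPM in sham and 628 in IRI. The lower sum thus rests in part on Kcnj1 and need not measure these cells. Of 10 epididymis markers, Cst11, Lcn5 and Lcn8 had no read in any library, while Spink8 averaged 1315 CPM in sham and 851 CPM in IRI and Defb2 8.67 and 4.78. Cx3cr1 had 1 read in each group.

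After IRI, 9 of the 10 genes were higher, against 24.2% of all 13881 genes tested, and 0 were lower, against 21.2% of genes tested. All 6 annexins and S100a6, S100a10 and S100a11 rose, and S100a1 had no call. Increases ran from 42.3-fold for S100a6 through 15.5-fold for Anxa1 and 12.5-fold for Anxa2 to 1.40-fold for Anxa4 and Anxa5. The median log2 fold change of the 10 genes was 1.85, against 0.00 over all genes tested, and 7 of them rose at least 2-fold, against 11.5% of genes tested. The 10 genes were chosen with earlier results of these data known, so these counts describe them and do not stand for their families. Calls were common in this comparison, with 45.5% of genes tested called in either direction. Fold changes come from edgeR's quasi-likelihood test on read counts, with Benjamini-Hochberg adjustment over all genes tested, and a gene is called at an adjusted p under 0.05. All 10 genes passed the filter on low counts, S100a6 with 518 reads in the 3 sham libraries together and S100a1 with 129987. Among the 10, edgeR also found 0 lower at an unadjusted p under 0.05, and DESeq2 and limma called 0 lower. With library size alone, which shifts all fold changes by a median of -0.20 on the log2 scale, 1 gene, S100a1, was lower. In bulk RNA of this kind, fewer cells of a type and less RNA per cell cannot be told apart.

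**Figure D1:**
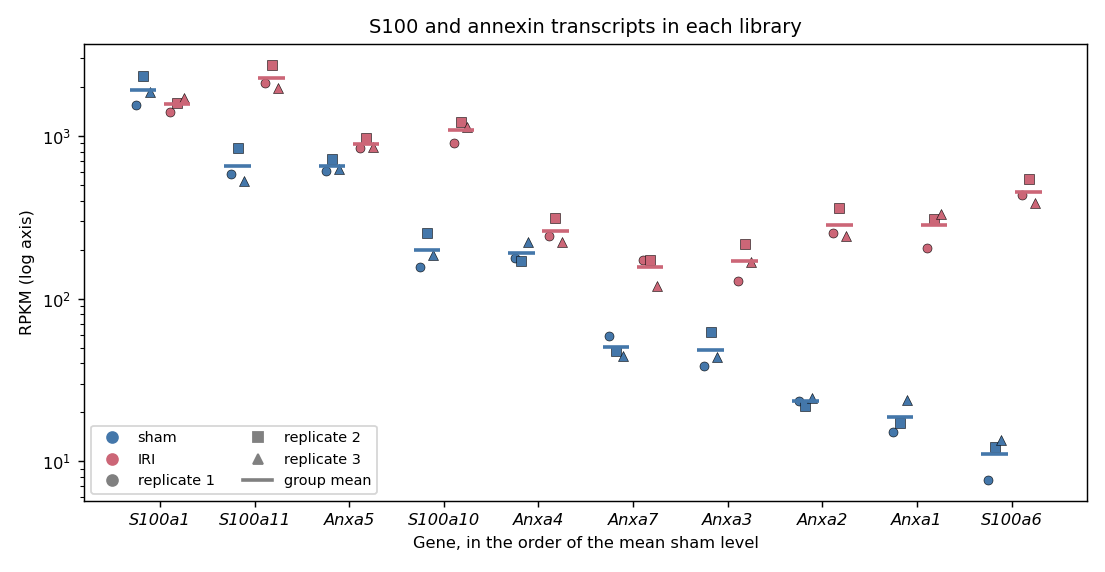
RPKM (log axis) of the 10 genes in each of the 3 sham and 3 IRI libraries, ordered by the mean sham level, with points for libraries and lines for group means. The IRI points lie above the sham points for 9 genes and overlap them for S100a1, and S100a6 moves from the lowest mean in sham to place 5 of 10 in IRI.

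Promoter windows of 250 bases before the start were matched by symbol for 8 of the 10 genes in the RefSeq table (build GRCm38.p6; 10 windows, Anxa4 and Anxa7 having 2 each). S100a10 and Anxa3 were not matched. The windows were searched on both strands for 4 kinds of motif, none of whose matches overlapped another. The AP-1 motif searched was TGAGTCA. The NF-kB motif was searched as 3 G, any 2 bases, 3 T and 2 C. The C/EBP motif was searched as TTGCGCAA and, with a looser centre, as TTGCNNCAA. The TEAD motif searched was GGAATG. AP-1 matched in S100a11, with 2 copies, and in Anxa2, with 1, where 4.46% of all 32851 windows of that length held it. NF-kB matched in 1 of the windows of Anxa4 (1.41% of all windows) and TEAD in that of Anxa1 (12.6%). C/EBP matched in none of the members' windows (0.164% and 1.74% of all windows for the 8- and 9-letter forms). The windows below are shown because they include the AP-1 matches, the NF-kB match, the gene with the largest increase and the gene with no call. Capitals mark the motifs, and each is read 5′ to 3′ on the strand of its gene. They lie at chr3:93520246-93520495 (plus strand, S100a11), chr9:69453433-69453682 (plus strand, Anxa2), chr6:86793585-86793834 (minus strand, Anxa4), chr3:90612644-90612893 (plus strand, S100a6) and chr3:90514331-90514580 (minus strand, S100a1).
S100a11: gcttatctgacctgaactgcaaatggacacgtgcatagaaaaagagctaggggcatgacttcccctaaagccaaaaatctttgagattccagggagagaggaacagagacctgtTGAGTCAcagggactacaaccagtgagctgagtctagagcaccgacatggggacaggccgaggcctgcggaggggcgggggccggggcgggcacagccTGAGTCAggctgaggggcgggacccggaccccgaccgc
Anxa2: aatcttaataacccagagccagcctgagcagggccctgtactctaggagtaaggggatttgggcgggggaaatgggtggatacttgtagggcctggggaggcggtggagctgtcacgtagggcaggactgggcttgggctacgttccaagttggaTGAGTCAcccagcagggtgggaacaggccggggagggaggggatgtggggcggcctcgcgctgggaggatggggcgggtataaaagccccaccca
Anxa4: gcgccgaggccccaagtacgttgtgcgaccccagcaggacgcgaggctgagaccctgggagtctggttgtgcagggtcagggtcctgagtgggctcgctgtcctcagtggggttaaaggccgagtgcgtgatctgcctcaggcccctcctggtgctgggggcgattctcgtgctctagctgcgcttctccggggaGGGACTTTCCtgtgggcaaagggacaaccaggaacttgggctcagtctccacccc
S100a6: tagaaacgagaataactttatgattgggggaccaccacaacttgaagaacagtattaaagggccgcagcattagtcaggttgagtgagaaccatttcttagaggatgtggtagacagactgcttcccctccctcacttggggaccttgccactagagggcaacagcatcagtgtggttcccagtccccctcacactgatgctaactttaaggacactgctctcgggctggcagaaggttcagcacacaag
S100a1: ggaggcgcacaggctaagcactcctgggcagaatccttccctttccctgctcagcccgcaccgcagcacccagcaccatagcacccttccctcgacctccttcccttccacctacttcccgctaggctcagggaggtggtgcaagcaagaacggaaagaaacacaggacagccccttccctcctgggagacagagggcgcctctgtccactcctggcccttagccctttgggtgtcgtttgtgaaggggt

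A match is a description of letters, and no binding was measured. The S100a11 matches begin 136 and 38 bases before the start and the Anxa2 match 95 bases before it. S100a6, with the largest increase, and S100a1, with no call, both had no match to any of the motifs in this window.

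Levels between genes are given per length, as the deposited RPKM (reads scaled to gene length and library size). In sham cells S100a1 stood first at 1919 ± 392 RPKM (mean ± SD, n = 3 for all levels below), above 99.9% of tested genes, followed by S100a11 at 655 ± 169 and Anxa5 at 654 ± 62.0, whose ranges overlapped. S100a10 (198 ± 50.6) and Anxa4 (190.1 ± 28.9) overlapped each other, as did Anxa7 (50.2 ± 7.46) and Anxa3 (48.1 ± 12.4), and Anxa2 (23.4 ± 1.41) and Anxa1 (18.8 ± 4.50). S100a6 was last at 11.1 ± 3.05 RPKM. In IRI cells S100a11 stood first and S100a1 second, with no overlap. S100a10 and Anxa5 came next and overlapped, and S100a6 followed them. Anxa2, Anxa1 and Anxa4 followed, each overlapping the next, and then Anxa3 and Anxa7, which overlapped.

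S100a6, calcyclin, a binding partner of the ubiquitin-pathway protein CacyBP, had the largest increase. Its levels were 7.67, 12.2 and 13.5 RPKM in sham replicates 1, 2 and 3 and 433, 547 and 387 RPKM in IRI replicates 1, 2 and 3. All IRI libraries were far above all sham libraries, and the lowest sham value was in replicate 1. By edgeR's quasi-likelihood test the log2 fold change was 5.40 ± 0.25 (SE; adjusted p = 8.74e-06), and it ran from 5.16 to 5.52 when single libraries were left out.

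S100a10, also called p11, links annexin A2 to ion channels and binds plasminogen at the cell surface. It was at 156, 255 and 184 RPKM in the sham libraries and at 907, 1218 and 1129 RPKM in the IRI libraries. The groups did not overlap, and the log2 fold change was 2.49 ± 0.20 (adjusted p = 4.83e-05). S100a11, which is known from the cornified envelope of skin and from wound-edge membrane repair, was at 585, 848 and 532 RPKM in sham and at 2120, 2744 and 1988 RPKM in IRI. Its IRI values were all higher, by 1.84 ± 0.20 on the log2 scale (adjusted p = 0.000216). In both genes replicate 2 was the highest library of its group, in sham as in IRI.

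S100a1, best known as a calcium sensor of heart and skeletal muscle, was the exception among the S100 genes described. Its levels were 1559, 2337 and 1862 RPKM in sham and 1397, 1586 and 1724 RPKM in IRI, and the groups overlapped. Its log2 fold change was -0.25 ± 0.16 (adjusted p = 0.237), with a 95% interval from 0.650 to 1.08 of the sham level. With library size alone it was called lower (log2 -0.45, adjusted p = 0.0245).

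The makeup of the summed transcripts of these S100 genes differed between the groups. The 4 genes summed to 2783 ± 595 RPKM in sham and 5393 ± 635 RPKM in IRI. S100a1 made up 69.0 ± 2.42% of that sum in sham and 29.3 ± 3.50% in IRI. S100a11 made up 23.5 ± 2.57% and 42.2 ± 3.71%, S100a10 made up 7.09 ± 0.30% and 20.1 ± 1.47%, and S100a6 made up 0.40 ± 0.10% and 8.43 ± 0.89%. These shares follow from the levels above and were not tested apart from them.

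Among the annexins, Anxa1 had the largest fold change. Annexin A1 is a glucocorticoid-induced protein that limits inflammation through formyl peptide receptors. Its transcript was at 15.2, 17.3 and 23.8 RPKM in sham and at 205, 307 and 334 RPKM in IRI. The groups were far apart, IRI replicate 1 was the lowest IRI library, and the log2 fold change was 3.95 ± 0.26 (adjusted p = 2.93e-05). Anxa2, the membrane- and actin-binding partner of S100A10, was at 23.6, 21.8 and 24.6 RPKM in sham and at 252, 360 and 242 RPKM in IRI. The sham libraries lay within a narrow range and every IRI library lay above it, by 3.65 ± 0.18 on the log2 scale (adjusted p = 6.41e-06).

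Anxa3 and Anxa7 rose by about the same fold, within their errors, and stood side by side in the order of levels in both groups. Anxa3, which encodes annexin A3, was at 38.4, 62.1 and 43.7 RPKM in sham and at 128, 217 and 167 RPKM in IRI (log2 1.87 ± 0.24, adjusted p = 0.000778). Anxa7, which encodes synexin, a protein that promotes membrane fusion, was at 58.7, 47.5 and 44.5 RPKM in sham and at 174, 173 and 120.3 RPKM in IRI (log2 1.67 ± 0.17, adjusted p = 0.000112). Neither gene's groups overlapped. Anxa7 was the only one of the 10 genes that was highest in replicate 1 in both groups.

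Anxa4 and Anxa5, abundant annexins of epithelial cells, had the smallest increases. Anxa5 encodes the phosphatidylserine-binding protein used to stain dying cells, and was at 607, 724 and 630 RPKM in sham and at 842, 972 and 851 RPKM in IRI. Its groups were apart, with a log2 fold change of 0.48 ± 0.12 (adjusted p = 0.0104), and the call was lost without sham replicate 3 (log2 0.42, adjusted p = 0.0621). Anxa4 was at 178, 169 and 223 RPKM in sham and at 241, 316 and 224 RPKM in IRI. The highest sham library nearly reached the lowest IRI library, and the log2 fold change was 0.49 ± 0.17 (adjusted p = 0.0381). The Anxa4 call was lost with the replicate number as a block (log2 0.48, adjusted p = 0.0588), with upper-quartile scaling (adjusted p = 0.0947) and on removal of sham replicate 1, sham replicate 2 or IRI replicate 2 (adjusted p = 0.113, 0.121 and 0.144). The log2 value was 0.31 without IRI replicate 2 and 0.29 with library size alone.

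The 6 annexins summed to 984 ± 61 RPKM in sham and 2042 ± 267 RPKM in IRI. Anxa5 made up 66.4 ± 2.93% of the sum in sham and 43.7 ± 2.14% in IRI, and Anxa4 made up 19.4 ± 3.15% and 12.7 ± 1.02%. Anxa1 made up 1.90 ± 0.43% and 13.8 ± 3.11%, and Anxa2 made up 2.38 ± 0.25% and 13.9 ± 1.45%.

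IRI replicate 2, which had the lowest sum of principal cell markers, was the highest IRI library for 7 of the 10 genes and the lowest for 0 of them. The part of that marker difference in these levels was not tested. The others were S100a1 and Anxa1, highest in IRI replicate 3, and Anxa7, highest in IRI replicate 1. Without IRI replicate 2, 8 of the 10 genes were called higher, Anxa4 being the one lost. The 9 genes all had every IRI library above every sham library in RPKM, which held for 27.6% of genes tested.

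For both protein pairs the ratio of transcripts was lower in every IRI library, in a design too small for the test to pass 0.05. The ratio of S100a10 to Anxa2 RPKM was 6.62, 11.7 and 7.48 in sham and 3.59, 3.38 and 4.67 in IRI, or 8.59 ± 2.69 against 3.88 ± 0.69 (mean ± SD, n = 3). All IRI ratios were below all sham ratios. The ratio of S100a11 to Anxa1 was 38.6, 49.0 and 22.4 in sham and 10.4, 8.94 and 5.96 in IRI, or 36.6 ± 13.4 against 8.42 ± 2.24. These groups did not overlap either. A two-sided exact permutation test gave p = 0.1 for each ratio and 0.1 after adjustment over both, which is the smallest p that 3 samples against 3 can give.

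**Figure D2:**
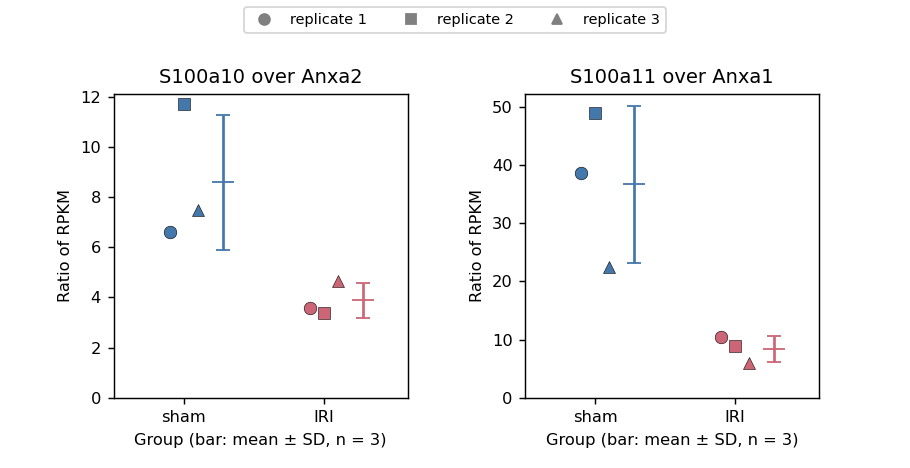
Ratio of RPKM of S100a10 to Anxa2 (left) and of S100a11 to Anxa1 (right) in each library, with mean ± SD beside the points (n = 3 per group). In both pairs every IRI ratio lies below every sham ratio.

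Across both families, 20 of the 28 genes in the table passed the filter on low counts. Of the 11 S100 genes tested, 8 were higher, 0 were lower and 3 had no call (S100a1, S100a13 and S100g). Of the 9 annexins tested, 8 were higher and 1, Anxa9, was lower. Over all genes tested, 24.2% were higher and 21.2% lower. The median log2 fold change was 1.84 over the tested S100 genes and 0.52 over the tested annexins. S100a3, S100a4 and S100z reached the filter in all 3 libraries in IRI alone, so these counts give no support and do not stand for the whole families. Without those genes 5 of 8 S100 genes were higher, with a median of 1.71. At an unadjusted p under 0.05 edgeR also found 0 S100 genes lower. DESeq2 called 7 S100 genes higher and 0 lower, S100z being lost (adjusted p = 0.0782, 13 reads in sham and 40 in IRI).

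**Figure D3:**
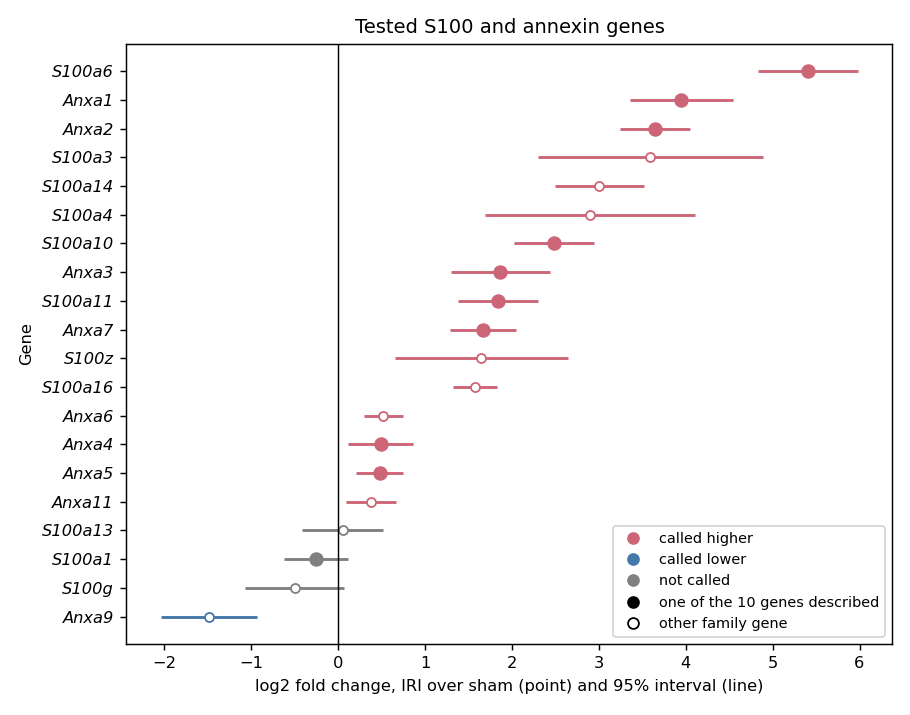
log2 fold change of IRI over sham (points) with 95% intervals (lines) for the 20 tested S100 and annexin genes, filled for the 10 genes described and open for the others. S100a6 has the largest increase at 5.40, S100a13, S100a1 and S100g have intervals that cross 0, and Anxa9 lies below 0.

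S100g, calbindin-D9k, a calcium buffer of calcium-absorbing tubule cells, stood above all 10 genes in RPKM. It was at 17773, 10615 and 16776 RPKM in sham and at 8884, 8614 and 13606 RPKM in IRI, with overlapping groups and no call (log2 -0.50 ± 0.25, adjusted p = 0.135). It was called lower with the replicate block (log2 -0.50, adjusted p = 0.0408) and without sham replicate 2 or IRI replicate 3 (log2 -0.70 and -0.75). S100a16 rose from 202 to 601 CPM (log2 1.58 ± 0.11, adjusted p = 1.91e-05), and S100a14, an epithelial S100 protein, from 1.96 to 15.6 CPM (log2 3.00 ± 0.23, adjusted p = 2.7e-05). S100a4, a marker of motile and mesenchymal cells, went from 30 reads in the 3 sham libraries to 222 in the 3 IRI libraries (log2 2.90 ± 0.53, adjusted p = 0.00243), and S100a3 from 4 to 50 (adjusted p = 0.00111). In the GENCODE M21 annotation both overlap a gene model on the same strand, Gm42674, and S100a3 also overlaps S100a2 on the same strand, so their counts are uncertain.

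The neutrophil proteins S100a8 and S100a9 had 0 reads in sham, and their IRI totals were 56 and 52. In IRI replicates 1, 2 and 3 S100a8 had 40, 16 and 0 reads and S100a9 had 40, 12 and 0. Neither passed the filter on low counts. A count of 0 over the 3 libraries of a group allows up to 3 reads, or 0.0477 CPM in sham and 0.0431 CPM in IRI, by counting error alone. S100b, S100a5 and S100a7a had at most 7 reads per group. Among the other annexins, Anxa6 (log2 0.52 ± 0.10, adjusted p = 0.00256) and Anxa11 (log2 0.38 ± 0.13, adjusted p = 0.0395) rose by less than 2-fold. The Anxa11 call was lost under 9 of 15 alternative settings (adjusted p up to 0.314), among them the removal of sham replicate 2 or 3 or IRI replicate 2 or 3, and Anxa11 overlaps an antisense gene. Anxa9, which overlaps Mindy1 on the other strand, fell from 20.1 to 7.16 CPM (log2 -1.49 ± 0.24, adjusted p = 0.00129). Anxa8 had 0 reads in sham and 20 in IRI, and Anxa10 and Anxa13 had none in any library.

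Most S100 genes lie together on chromosome 3. Gene order and overlaps were taken from the GENCODE M21 annotation (GRCm38), which need not match the annotation used for counting. In it S100a1 and S100a13 are neighbours on opposite strands at one end of the cluster, and both had no call (S100a13 log2 0.05 ± 0.20, adjusted p = 0.860). The next tested genes in that order, S100a14, S100a16, S100a3, S100a4 and S100a6, were all higher, with log2 values of 3.00, 1.58, 3.59, 2.90 and 5.40. S100a3 and S100a4 reached the filter on low counts in all 3 libraries in IRI alone, so their place in this order gives no support. Among all genes tested, 24.2% were higher. S100a11 and S100a10 are neighbours of each other farther along the chromosome and were both higher. S100a5, S100a7a, S100a8 and S100a9 did not pass the filter on low counts.

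**Figure D4:**
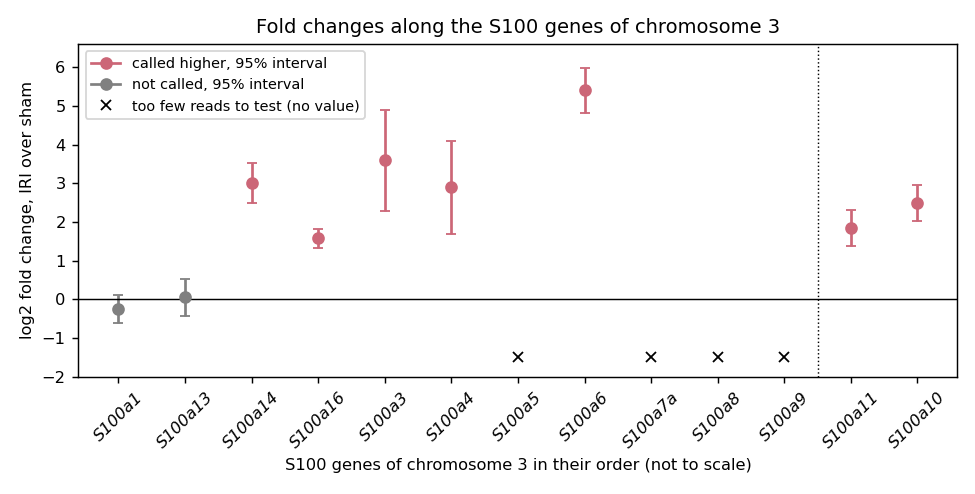
log2 fold change of IRI over sham with 95% intervals for 13 S100 genes of chromosome 3 (S100a2 not analysed here), in their order and not to scale, the dotted line setting apart S100a11 and S100a10. Crosses below 0 mark 4 genes that did not pass the filter on low counts and carry no value. The called genes start at S100a14, and of them S100a3 and S100a4 reached the filter in all 3 libraries in IRI alone.

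Reads were counted without strand, so the overlap of genes can bear on some values. In GENCODE M21, Anxa2 overlaps an antisense gene (Gm16144), and Anxa1 and Anxa4 each overlap a non-coding gene on the other strand (1500015L24Rik and Gm44036). Reads of the partners in shared bases cannot be told apart, and counting may set them aside as ambiguous. Whether the annotation used for counting held these partners is not known here. Anxa3 overlaps an unclassified gene model on its own strand (Gm42603), and Anxa2 and Anxa5 each overlap the gene of a miRNA on their own strand. S100a1, S100a6, S100a10, S100a11 and Anxa7 overlap no other gene there. The processed pseudogene of S100a11 had 8 sham and 26 IRI reads, against 22446 and 76353 for S100a11.

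The partner list held 14 genes that bind S100 proteins or annexins or act with them, of which 13 were tested, 9 were higher, 0 lower (0 also at an unadjusted p under 0.05 in edgeR and 0 by DESeq2) and 4 not called, where 24.2% of all genes tested were higher and 21.2% lower. The median log2 fold change was 0.67. Under the alternatives 8 or 9 of these partners were called higher. Plat reached the filter in all 3 libraries in IRI alone, and without it 8 of 12 were higher and the median was 0.64. Plat, the gene of tissue plasminogen activator, which binds the S100A10-annexin A2 complex, had 35 sham and 596 IRI reads (log2 4.11 ± 0.42, adjusted p = 0.000126). Trpv6, a calcium channel that S100A10 and annexin A2 help to place in the membrane, was at 2.97, 1.32 and 1.92 RPKM in sham and 28.8, 20.7 and 6.93 RPKM in IRI (log2 3.21 ± 0.61, adjusted p = 0.00786). The IRI libraries differed widely among themselves but all lay above sham. Ahnak, a giant scaffold bound by S100A10 and annexin A2, rose from 55.4 to 240.3 CPM (log2 2.12 ± 0.14, adjusted p = 1.86e-05). Cacybp, the partner of S100A6, averaged 231 CPM in sham and 217 in IRI (log2 -0.09 ± 0.15, adjusted p = 0.674), and Pef1 84.0 and 80.3 CPM (adjusted p = 0.644).

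Of 8 receptors named for extracellular S100 proteins or annexin A1, 4 were tested, with a median log2 fold change of 0.03 and 0 lower (0 also at an unadjusted p under 0.05 in edgeR and 0 by DESeq2). Tlr4 was the 1 gene called higher, from 0.675 to 2.85 CPM (log2 2.05 ± 0.40, adjusted p = 0.00333). Among all genes tested, 24.2% were higher and 21.2% lower. Bsg, or basigin, was at 1771 and 1481 CPM (log2 -0.26 ± 0.14, adjusted p = 0.156) and was called lower with upper-quartile scaling, with library size alone and with the replicate block (adjusted p = 0.0474, 0.00755 and 0.0431). Alcam was at 98.4 and 123 CPM without a call (adjusted p = 0.253), and was called higher without sham replicate 2 (log2 0.56, adjusted p = 0.0275). The annexin A1 receptors were barely sampled: Fpr1 had 0 reads in sham and 2 in IRI, and Fpr2 and Fpr3 had none. Ager, which encodes the receptor RAGE, had 23 reads in sham and 22 in IRI, below the filter.

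Of 22 genes for membrane repair, 21 were tested, 14 were higher, 1 was lower and 6 had no call. The median log2 fold change was 0.84, where 24.2% of all genes tested were higher and 21.2% lower. Under the alternatives 12 or 14 were called higher, with 12 under upper-quartile scaling, both limma fits and the removal of any sham replicate. Dysf and Trim72 (named after its values were seen) reached the filter in all 3 libraries in IRI alone, and without them 13 of 19 were higher, 1 was lower and the median was 0.68. Dysf, dysferlin, had 18 sham and 145 IRI reads (log2 2.98 ± 0.56, adjusted p = 0.00265, and log2 3.88 without sham replicate 3). Its relative Myof rose from 7.08 to 33.3 CPM (log2 2.23 ± 0.17, adjusted p = 2.47e-05), and Ptrf, a coat protein of caveolae, from 15.4 to 65.0 CPM (log2 2.08 ± 0.15, adjusted p = 2.2e-05). The calcium sensor of lysosome exocytosis, Syt7, was the lower gene (log2 -1.79 ± 0.56, adjusted p = 0.0406), and its call was lost with no filter on low counts and without sham replicates 2 or 3 or any one IRI replicate (adjusted p up to 0.139). Cav1, caveolin 1, was at 245 and 244 CPM (SE of the log2 fold change 0.13, adjusted p = 0.982), and Chmp3 at 157 and 174 CPM (log2 0.15 ± 0.10, adjusted p = 0.236).

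The genes whose levels followed S100a6 most closely over the 6 libraries were Ikzf4, Birc3 and Cmpk1. Pearson's r of log2(CPM + 1) was 0.999 for Ikzf4 and Birc3 and 0.998 for Cmpk1, as a description over 6 samples that fall into separate groups, where 10.7% of tested genes had r of at least 0.95. Ikzf4 rose 5.94-fold, Birc3, an inhibitor of apoptosis, 4.71-fold and Cmpk1, a nucleotide kinase, 1.92-fold.

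Members of these families are also expressed by leukocytes, urothelium and connective tissue, so markers of those cells are given beside the result. Summed over 13 macrophage and dendritic cell markers, led by Cd74 and Cd68, the level was 56.8 to 256.5 CPM in sham and 165.5 to 284.9 CPM in IRI. Of 10 tested, 3 were higher (Cd68, and, named after their values were seen, Lyz2 and Ptprc), against 24.2% of all genes tested. The other 7, Cd74 among them, had no call. Cd68 went from 0.903 to 37.7 CPM. Neutrophil markers, 11 genes led by S100a8 and S100a9, summed to 0 to 0.118 CPM in sham and 0.145 to 5.25 CPM in IRI, with Elane and Camp at 0 in all libraries. The 9 urothelial markers, led by Psca and Upk3a, summed to 12.4 to 28.6 CPM in sham and 23.5 to 114.6 CPM in IRI, highest in IRI replicate 3. Of 7 urothelial genes tested, edgeR called 0 (0 also at an unadjusted p under 0.05) and DESeq2 called 2 higher. Endothelial markers, led by Egfl7 and Plvap, summed to 6.36 to 11.9 CPM in sham and 9.30 to 18.6 in IRI, with 0 of 5 tested called by edgeR (0 at an unadjusted p under 0.05) and 1 called higher by DESeq2. Fibroblast and pericyte markers, led by Dcn and Acta2, summed to 19.3 to 84.0 CPM in sham and 15.9 to 39.4 in IRI. Of 2 tested, Acta2 was higher, against 24.2% of all genes tested. The other, Dcn, averaged 43.4 CPM in sham and 23.8 in IRI and had no call. Col3a1 was at 0 in all libraries. The part of these cells in the increases was not tested. Leaving out a library cannot test it, since the other libraries keep their own reads of these cells. Cd68 was at 21.7, 36.6 and 18.8 RPKM in IRI replicates 1, 2 and 3. Its log2 fold change was 5.39, against a median of 0.73 over the tested markers of its list. Cd68 alone thus need not measure these cells. Without IRI replicate 3, the library with the highest urothelial and macrophage sums, the log2 fold changes of S100a6, S100a10, Anxa1 and Anxa2 were 5.51, 2.46, 3.81 and 3.75. Without IRI replicate 1, the library with the highest neutrophil sum, they were 5.45, 2.61, 4.15 and 3.74.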

How the data were processed

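RNA was sequenced from 6 samples, 3 sham and 3 IRI. Per the submitters' processing notes, STAR, HTSeq and edgeR were used and mm9 is the genome build named, with versions not given in the sources used here. The authors deposited raw read counts per gene for each sample and 1 table of RPKM. Per the file headers and values, that RPKM divides each count by the listed gene length and by a library size that was 0.917 to 1.09 times the reads in genes. Of all counts, summary rows included, 49.1% to 50.7% fell in genes and 39.9% to 42.4% were for alignment to more than 1 place. These shares of counts need not equal shares of reads. Transcripts with near-identical copies are undercounted. Each file's 5 summary rows were left out.

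Counts were matched to symbols by ID and tested with edgeR 4.0.16 (R 4.3.3; filterByExpr, TMM, robust quasi-likelihood fit, group as the single term, Benjamini-Hochberg over 13881 genes), with the 95% interval taken from the same fit. CPM are these counts over TMM-scaled library sizes. The biological coefficient of variation was 19%. In simulated data with that variation, 60 of 100 genes changed 2-fold, 96 of 100 changed 4-fold and 11 unchanged genes were called, among 13896 genes tested. No other genes were changed there and all genes shared 1 variation, while 45.5% of genes tested were called in the data. The simulated numbers thus need not hold for this comparison. Alternatives used DESeq2 1.42.0, limma 3.58.1 on log2(RPKM + 1) and log2(RPKM + 0.1), other scalings and filters, a replicate block, and each library left out. Ratios were tested with SciPy 1.17.1.

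Deviations from the group means correlated at 0.134, 0.172 and 0.2 between same-numbered samples, and at -0.134 to -0.004 between others, so by this measure the numbers in the sample titles pair the samples, although no label ties them. The reported values come from the fit without the pairs, the ratio test is unpaired, and the value with the replicate block is given where it changes a call. No 2 libraries of a group agreed within sampling noise. The 10 genes, the gene lists and the tests were chosen with earlier results of these data known. Beyond the 10 genes and their families, the text names, per list, up to 3 called genes in each direction with the largest fold changes, up to 2 not called with the highest CPM, the 3 genes most like S100a6, and up to 2 markers per cell type by CPM. A gene that this rule selects is not reported here.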

Additional observations from a re-analysis of the deposited data

How the results depend on the processing

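Of 150 values for the 10 genes under 15 alternatives, 140 kept their direction and their side of the threshold, 9 lost the call, 1 gained one and 0 reversed. The count of the 10 genes called higher was 8 or 9 under every alternative, and 8 or 9 when single libraries were left out. The count called lower was 0 except with library size alone, where it was 1 (S100a1). The 9 lost calls were Anxa4 under 8 alternatives (adjusted p up to 0.144) and Anxa5 under 1. With the replicate block 8 of the 10 genes were called higher, Anxa4 being lost. Among the families and gene lists, cell type markers aside, the block ended the Cpne4 call and made S100g, Bsg and Cpne7 (log2 -0.67, adjusted p = 0.0313) lower, and it changed no other call there; over all genes the block gave 3368 higher and 3095 lower. Scaling moved the balance of calls over all genes. Of the calls, 53.3% were higher with TMM (3364 higher, 2948 lower), 42.0% with upper-quartile scaling (2748 and 3789) and 35.6% with library size alone (2400 and 4339), and these scalings shifted the median log2 fold change by -0.12 and -0.20. Leaving out single libraries gave 2566 to 3172 genes higher and 2295 to 2734 lower. Fold changes of genes with few sham reads depended on the pseudocount: Dysf had log2 0.29 with limma on log2(RPKM + 1). The 3 libraries per group limit the precision of every value.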

Other observations

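Outside the S100 family, 16 other genes of EF-hand calcium-binding proteins were tested, and 7 were higher, 2 were lower and 7 had no call, with a median log2 fold change of 0.33, where 24.2% of all genes tested were higher and 21.2% lower. Efhd2, an actin-binding protein, rose from 26.6 to 119 CPM (log2 2.16 ± 0.14, adjusted p = 1.58e-05 by edgeR's quasi-likelihood test). Calm2, which encodes calmodulin, also rose (log2 1.43 ± 0.12, adjusted p = 4.35e-05). Gca, grancalcin, fell by 0.57 on the log2 scale (adjusted p = 0.00133), and Efhd1, a mitochondrial protein, by 0.49 (adjusted p = 0.0254), a call lost without sham replicate 3 or IRI replicate 1 (adjusted p = 0.0734 and 0.0746). Calb1, the calbindin of distal tubule cells, was at 2097 CPM in sham and 1305 in IRI with no call (adjusted p = 0.122), and was called lower by DESeq2 (log2 -0.69, adjusted p = 0.0235) and without sham replicate 2 (log2 -0.98, adjusted p = 0.00318). Sdf4 was at 290 and 330.0 CPM with no call.

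Of 6 copines tested, another family of calcium-dependent membrane-binding proteins, 1 was higher and 1 was lower, with a median log2 fold change of 0.15. Among all genes tested, 24.2% were higher and 21.2% lower. Cpne2 averaged 1.51 CPM in sham and 3.34 in IRI (log2 1.15 ± 0.35, adjusted p = 0.0246), and Cpne4 0.829 and 0.277 CPM (log2 -1.54 ± 0.48, adjusted p = 0.0272). The Cpne2 call was lost under 4 of 15 alternatives and the Cpne4 call under 7, among them DESeq2 and the replicate block (adjusted p = 0.0511). Cpne4 reached the filter on low counts in all 3 libraries in sham alone. Removal of sham replicate 1, sham replicate 2 or IRI replicate 1 ended the Cpne2 call (highest adjusted p 0.0866). Removal of sham replicate 1 or 3, or of IRI replicate 1 or 3, ended the Cpne4 call (highest adjusted p 0.114). Cpne3 (67.2 and 69.4 CPM) and Cpne8 (45.4 and 54.9 CPM) had no call.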
